A study of Mus musculus with 31 samples.

Results

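The UDP-glucuronosyltransferase genes described here are 9 members of the Ugt2b and Ugt3a groups, Ugt2b1, Ugt2b5, Ugt2b34, Ugt2b35, Ugt2b36, Ugt2b37, Ugt2b38, Ugt3a1 and Ugt3a2, measured as liver transcripts in mice. They were chosen by gene symbol, and each was read from its array probe set, the group of short probes that reports 1 transcript, with the highest mean over all arrays. They are 9 of 18147 genes with a probe set of their own, and all 9 were among the 12890 genes bright enough to be tested. Left liver lobes of female mice aged 8 to 10 weeks were hybridised to 1-colour Affymetrix arrays in a study of how 4 inbred strains respond to PF-04287881, a candidate antibiotic. Treated mice received 600 mg/kg of PF-04287881 by gavage once daily for 7 days, controls received sterile water as vehicle, and livers were collected 24 hours after dosing ended. MA/MyJ mice numbered 4 treated and 4 vehicle, as did NZW/LacJ and SM/J mice, and there were 3 treated and 4 vehicle animals of WSB/EiJ, in which 1 treated animal died of a gavage error. The submitters coded the treated-strain findings as vacuolation of Kupffer cells, the resident liver macrophages, in MA/MyJ and NZW/LacJ, and as single cell necrosis in NZW/LacJ. All mice were female and each strain was inbred, so the values do not cover males or outbred animals. All 9 hepatocyte markers tested lay above the median of all values in all 31 arrays, with albumin between 14.7 and 14.8 log2 units.

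UDP-glucuronosyltransferases sit in the membrane of the endoplasmic reticulum and attach a sugar, in most cases glucuronic acid from UDP-glucuronic acid, to small lipid-soluble molecules, which can then leave in bile or urine. The liver is their main site, and enzymes of the UGT2B group conjugate steroids, bile acids and many drugs. The UGT3A enzymes are set apart by their sugar donors: in humans, UGT3A1 uses UDP-N-acetylglucosamine and UGT3A2 uses UDP-glucose and UDP-xylose. Liver expression of the family rests in part on the hepatocyte factor HNF4A and can be raised through drug sensors such as PXR (Nr1i2), CAR (Nr1i3), the aryl hydrocarbon receptor (Ahr) and NRF2 (Nfe2l2).

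The 7 Ugt2b members lay together on chromosome 5, in the order Ugt2b34, Ugt2b1, Ugt2b35, Ugt2b36, Ugt2b5, Ugt2b37 and Ugt2b38, with Ugt2a3 between the last 2, and Ugt3a1 and Ugt3a2 were neighbours on chromosome 15. Promoters, from 250 bases before to 50 bases after the start of the gene, were held in the RefSeq table of build GRCm38.p6 for 8 of the 9 members. They give the reference strain's sequence, not those of the 4 strains studied. The promoters of Ugt2b37 and Ugt2b38 are shown because they are the most alike pair of the family and their transcripts are described side by side, that of Ugt2b35 because its transcript fell most in WSB/EiJ, and that of Ugt2b1 because its effect differed between strains. Capitals mark matches, on either strand, to an inverted repeat, GTTA and TTAAC with 4 free bases between them, and to AGGTCA, the core element bound by many nuclear receptors.
Ugt2b37 (chr5:87254739-87255038, minus strand): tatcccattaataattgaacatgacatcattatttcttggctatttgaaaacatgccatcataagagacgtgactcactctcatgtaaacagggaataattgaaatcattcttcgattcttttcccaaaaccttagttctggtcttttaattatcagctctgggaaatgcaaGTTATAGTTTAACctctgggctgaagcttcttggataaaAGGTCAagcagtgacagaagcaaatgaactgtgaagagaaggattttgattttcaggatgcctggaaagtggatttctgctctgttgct
Ugt2b38 (chr5:87424154-87424453, minus strand): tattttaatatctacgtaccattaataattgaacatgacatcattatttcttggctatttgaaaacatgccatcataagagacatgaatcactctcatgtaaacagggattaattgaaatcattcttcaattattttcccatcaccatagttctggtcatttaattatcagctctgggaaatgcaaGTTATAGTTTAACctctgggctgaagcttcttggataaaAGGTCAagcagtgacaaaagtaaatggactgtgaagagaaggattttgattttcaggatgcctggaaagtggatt
Ugt2b35 (chr5:87000610-87000909, plus strand): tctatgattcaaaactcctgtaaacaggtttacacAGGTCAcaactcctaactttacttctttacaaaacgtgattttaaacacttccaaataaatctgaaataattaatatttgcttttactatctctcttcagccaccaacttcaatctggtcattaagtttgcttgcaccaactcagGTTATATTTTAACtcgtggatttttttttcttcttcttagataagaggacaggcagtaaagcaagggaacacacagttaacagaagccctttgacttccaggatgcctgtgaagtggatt
Ugt2b1 (chr5:86926454-86926753, minus strand): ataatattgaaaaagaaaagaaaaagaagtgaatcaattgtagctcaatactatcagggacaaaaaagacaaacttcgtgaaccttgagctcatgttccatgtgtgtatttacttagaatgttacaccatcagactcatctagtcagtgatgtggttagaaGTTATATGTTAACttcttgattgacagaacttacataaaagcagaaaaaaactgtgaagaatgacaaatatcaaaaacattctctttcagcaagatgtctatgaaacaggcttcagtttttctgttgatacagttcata
Ugt2b37 and Ugt2b38 were identical at 273 of 286 aligned positions (95.5%), with a longest shared run of 82 bases, and Ugt2b5 matched them at 89.5% and 90% of aligned positions. All other pairs matched at 56.2% to 72.3%. The inverted repeat was found in all 8 member promoters, against 62 of the 32851 mouse promoters in the table (0.189%, members included), but this pattern was chosen after reading the members' promoters and its count is only a description. AGGTCA was present in 5 of the 8, against 16.3% of all promoters, and none of the 8 held the antioxidant response core TGACNNNGC (12.4% of all promoters). All patterns were matched letter for letter on both strands. Also in none of the 8 were the direct repeats of AGGTCA with 1 or 4 free bases between (0.0396% and 0.0152% of all promoters). TATAAA occurred in 1 of the 8, against 13.6% of all promoters.

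No member's probe set was annotated to more than 1 symbol. Ugt2b34 was read by a set whose name ends in s, the maker's mark for probes that can match several transcripts, and Ugt3a1 had a second set of that kind, whose value is given below. The probe sequences were not used here, so signal shared between such similar paralogues was not tested. The Ugt1a genes, Ugt2a1 and Ugt2a2 were read by probe sets that carry several symbols and were not tested.

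One array limits the WSB/EiJ results. On a scale built from 300 probe sets that mark WSB/EiJ, running from 0 for the mean of the other strains to 1 for that of WSB/EiJ, the array labelled as treated WSB/EiJ animal 3 lay at -0.0139, while the other treated WSB/EiJ arrays lay at 0.904 and 0.925. On the matching NZW/LacJ scale it lay at 0.998, and on a scale from NZW/LacJ vehicle (0) to NZW/LacJ treated (1) it lay at 0.0507, inside the range of the NZW/LacJ vehicle arrays, -0.0174 to 0.0916. WSB/EiJ vehicle animal 4 also stood apart, at 0.653 on the WSB/EiJ scale, against 0.956 to 1.02 for the other vehicle animals. The array labelled as treated WSB/EiJ animal 3 is called the doubtful array, and results are given with and without it. Because 1 estimate of each gene's spread is shared by all groups, leaving out that array also changes the tests in the other strains.

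Values are log2 RMA values, on which 1 unit is a doubling, and changes are log2 differences ± 1 standard error, PF-04287881 minus vehicle. Adjusted p-values are from limma's moderated test with Benjamini-Hochberg adjustment over all 12890 genes, and a gene rose or fell only where the adjusted p was under 0.05. Arrays of whole liver cannot tell apart fewer cells of a type and less RNA per cell.

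**Figure D1:**
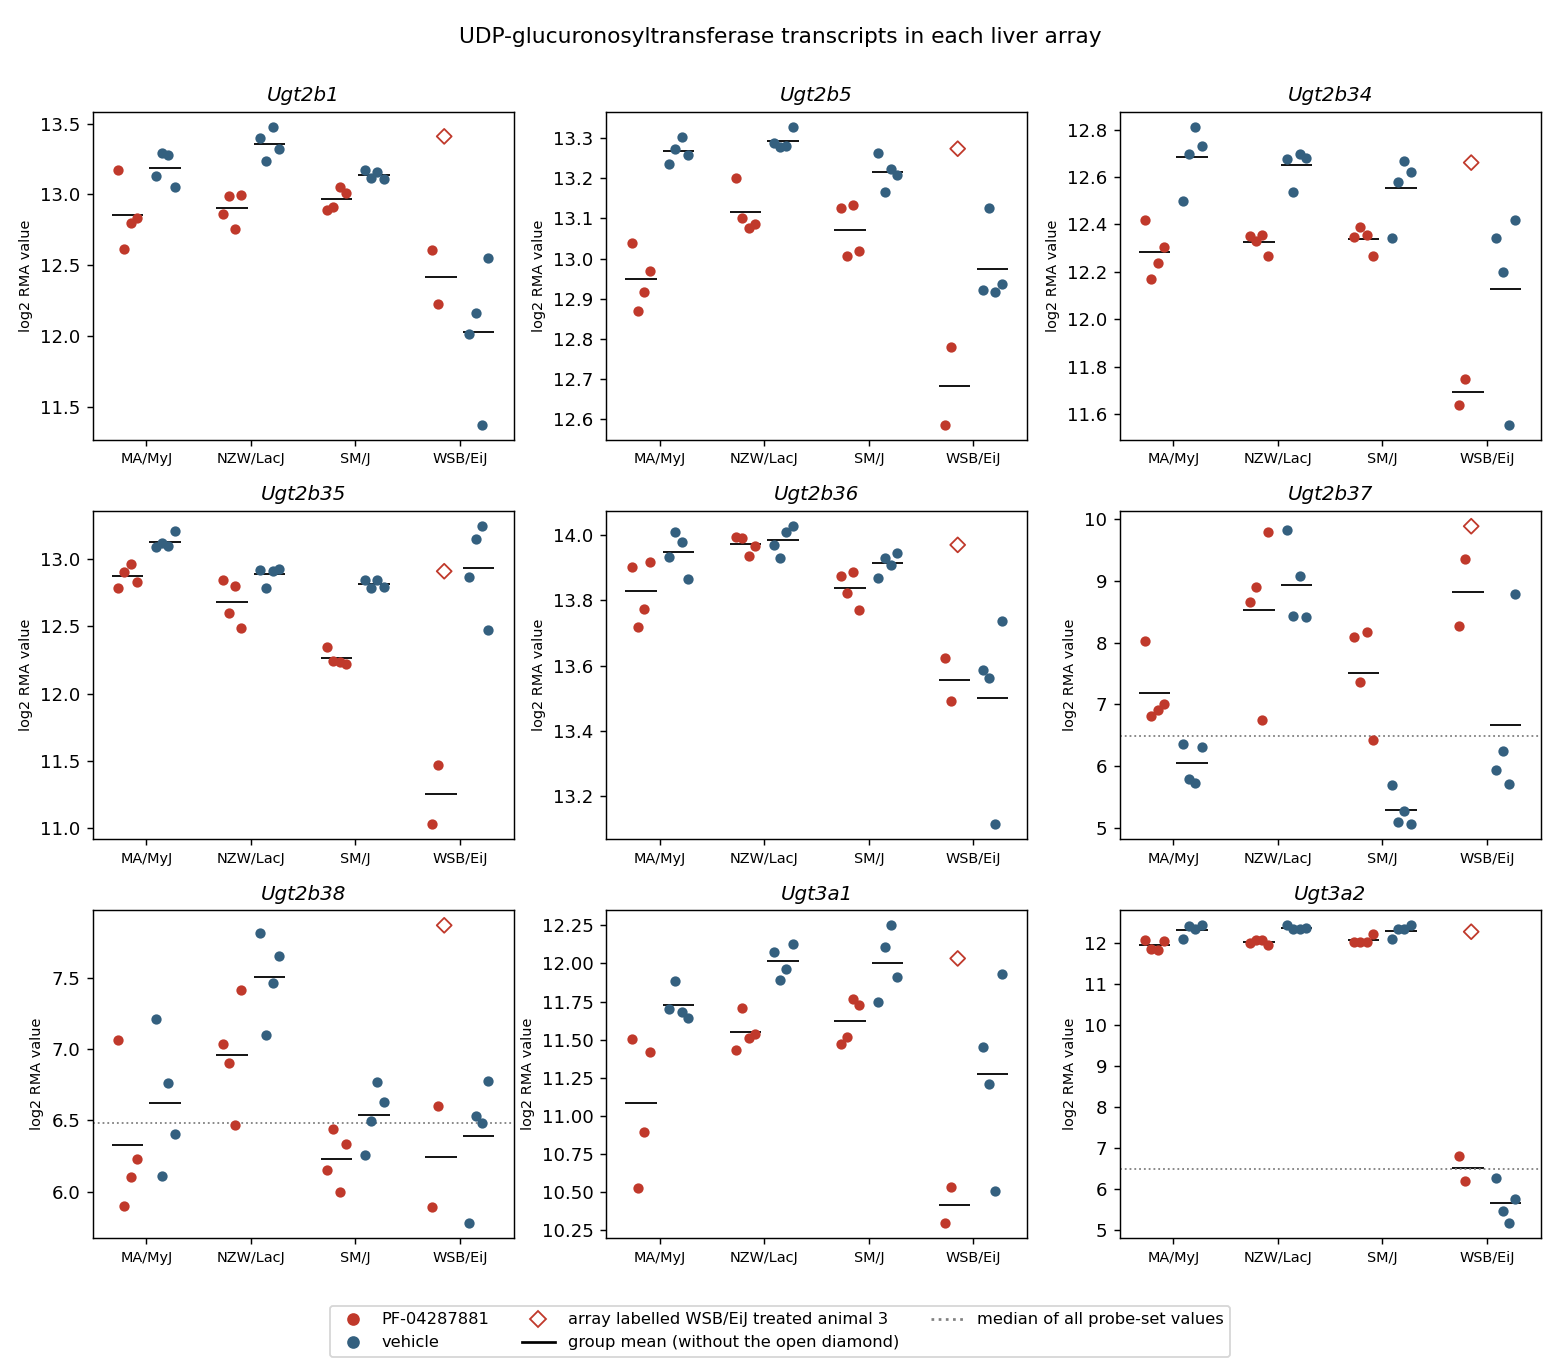
Log2 RMA value of each gene in each array (points), by strain and treatment, with the group mean as a bar. PF-04287881 is in red to the left of vehicle in blue. The array labelled as treated WSB/EiJ animal 3 is an open diamond left out of the means, and the dotted line is the median of all probe-set values, 6.49. Ugt2b37 shows the widest drug response and Ugt3a2 the widest strain difference.

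Ugt2b37 rose in SM/J and in WSB/EiJ. In SM/J it read 8.08, 7.36, 8.16 and 6.42 after PF-04287881, against 5.69, 5.10, 5.27 and 5.06 after vehicle. Every treated SM/J animal lay above every vehicle animal, and 3 of the 4 treated animals passed the brightness of the median probe set while no vehicle animal did. All 4 vehicle values lay below that median, 6.49, and without detection calls are not shown to be above background, so the difference may be a lower bound and no fold is given. The difference was 2.22 ± 0.57 (adjusted p = 0.0340, limma), and 2.22 ± 0.57 with an adjusted p of 0.0214 (limma) without the doubtful array. The call with all arrays was lost when any 1 of the SM/J animals other than treated animal 4 was left out.

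In WSB/EiJ, Ugt2b37 read 8.27, 9.35 and, in the doubtful array, 9.88 after PF-04287881, against 5.94, 6.24, 5.71 and 8.78 after vehicle. The vehicle value of 8.78 was that of animal 4, which stood apart from its group, and it lay between the values of both undoubted treated animals. Vehicle animals 1 to 3 lay below the median of all values, 6.49, and are not shown to be above background. The difference was 2.50 ± 0.62 (adjusted p = 0.00569, limma) with all arrays and 2.14 ± 0.70 (adjusted p = 0.0195, limma) without the doubtful array. With vehicle animal 4 left out as well, a choice made after seeing the data, it was 2.85 ± 0.60 (adjusted p = 0.000767, limma).

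In MA/MyJ, Ugt2b37 read 8.02, 6.80, 6.91 and 7.003 after PF-04287881, against 6.36, 5.79, 5.73 and 6.31 after vehicle. The groups did not overlap, but the difference of 1.13 ± 0.57 did not pass the test over all genes (adjusted p = 0.298, limma). In NZW/LacJ it read 8.65, 8.89, 6.75 and 9.80 after PF-04287881, against 9.82, 8.43, 9.07 and 8.41 after vehicle. These groups overlapped, and their difference was -0.41 ± 0.57 (95% interval -1.59 to 0.77), which became 0.18 when treated animal 3 was left out. The strain-by-treatment test, which asks whether the effect was the same in the 4 strains, passed for Ugt2b37 (adjusted p = 0.0381, limma's moderated F test, and 0.0422 without the doubtful array), so its effect differed between strains. The call with all arrays was lost when any 1 of 13 arrays was left out.

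Ugt2b38, the neighbour with the near-identical promoter, did not pass in any strain, and the responses of the pair were not tested against each other. Its treated minus vehicle differences for MA/MyJ, NZW/LacJ and SM/J were -0.30, -0.55 and -0.31, and that for WSB/EiJ was 0.40, each with a standard error of 0.31 to 0.34, and the WSB/EiJ value was -0.14 without the doubtful array. Its treated and vehicle animals overlapped in every strain. In SM/J, where Ugt2b37 rose, it ranged from 6.001 to 6.44 after PF-04287881 and from 6.26 to 6.77 after vehicle, close to the median of all probe-set values, 6.49.

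Ugt2b35 fell, most of all in WSB/EiJ. There it read 11.03, 11.47 and, in the doubtful array, 12.91 after PF-04287881, against 12.87, 13.15, 13.25 and 12.47 after vehicle. Both undoubted treated animals lay at least 1 log2 unit below the lowest vehicle animal. The difference was -1.13 ± 0.24 (adjusted p = 0.00132, limma) with all arrays and -1.69 ± 0.14 (3.22-fold lower, adjusted p = 4.10e-09, limma) without the doubtful array. The spread behind these tests was shared by all groups. The SD was 0.31 in the undoubted treated (n = 2) and 0.35 in the vehicle WSB/EiJ animals, against 0.032 to 0.17 in the other strains' groups. The 0.14 can therefore understate the spread between WSB/EiJ animals, and the p-value can be too small. With the doubtful array kept, the difference was -0.74 without treated animal 1, the lowest. Treated animal 2 by itself lay at -1.46 from the vehicle mean.

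In SM/J, Ugt2b35 read 12.35, 12.24, 12.23 and 12.22 after PF-04287881, against 12.84, 12.79, 12.85 and 12.79 after vehicle. These are tight groups that do not overlap, and the difference of -0.56 ± 0.22 did not pass with all arrays (adjusted p = 0.210, limma). It passed without the doubtful array (-0.56 ± 0.11, 1.47-fold lower, adjusted p = 0.00512, limma), and also with array weights and in a fit of the SM/J arrays alone. The difference was -0.26 in MA/MyJ, where the groups were also apart, and -0.20 in NZW/LacJ, where they overlapped, and neither passed in either fit. Without the doubtful array the effect on Ugt2b35 differed between strains (adjusted p = 4.28e-06, limma's moderated F test), whereas with all arrays it did not pass (adjusted p = 0.111).

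Ugt2b5 fell in MA/MyJ, and all 14 undoubted treated arrays lay below every vehicle array of their own strain. In MA/MyJ it read 13.04, 12.87, 12.92 and 12.97 after PF-04287881, against 13.24, 13.27, 13.30 and 13.26 after vehicle, with no overlap. It fell by 0.32 ± 0.088 (adjusted p = 0.0370, limma) with all arrays, a call lost without any 1 of 7 of the MA/MyJ animals, and by 0.32 ± 0.058 (adjusted p = 0.000960, limma) without the doubtful array. In NZW/LacJ and SM/J the differences were -0.18 and -0.14. The NZW/LacJ difference did not pass with all arrays and passed without the doubtful array (adjusted p = 0.0238, limma), with array weights and within the strain alone, and the SM/J difference passed in neither fit. In WSB/EiJ it read 12.59 and 12.78 in the undoubted treated animals, against 12.92 to 13.13 in vehicle animals, a difference of -0.29 ± 0.071 (adjusted p = 0.00233, limma), and -0.095 ± 0.095 with the doubtful array, which read 13.27.

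Ugt2b34 and Ugt3a1 were lower on average over the strains, and passed in no single strain with all arrays. Ugt2b34 ranged from 12.17 to 12.42 after PF-04287881 and from 12.50 to 12.81 after vehicle in MA/MyJ, and from 12.27 to 12.35 after PF-04287881 and 12.54 to 12.70 after vehicle in NZW/LacJ, with no overlap in either strain. When the doubtful array was left out Ugt2b34 fell by 0.40 ± 0.12 in MA/MyJ and by 0.32 ± 0.12 in NZW/LacJ, and by 0.44 ± 0.14 in WSB/EiJ (adjusted p = 0.0375, 0.0455 and 0.0229, limma). With all arrays the WSB/EiJ difference was -0.11. In WSB/EiJ the groups overlapped: both undoubted treated animals, at 11.64 and 11.75, lay above vehicle animal 3, at 11.55. The SM/J groups overlapped too, and their difference of -0.21 passed in neither fit.

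Ugt3a1 ranged from 10.53 to 11.51 after PF-04287881 and from 11.64 to 11.89 after vehicle in MA/MyJ, and from 11.43 to 11.71 after PF-04287881 and 11.89 to 12.13 after vehicle in NZW/LacJ. Neither strain's groups overlapped, but the differences of -0.64 and -0.47 did not pass. The SM/J groups of Ugt3a1 overlapped, and their difference of -0.38 passed in neither fit. In WSB/EiJ it read 10.30 and 10.53 in the undoubted treated animals, against 11.45, 11.21, 10.51 and 11.93 in vehicle animals, where the groups just overlap. Leaving out the doubtful array, whose value was 12.03, it fell by 0.86 ± 0.25 in WSB/EiJ (adjusted p = 0.00915, limma), against -0.32 ± 0.29 with it. The second probe set of Ugt3a1 gave an average difference over the strains of -0.49 ± 0.13, against -0.45 ± 0.14 from the set used, and passed as well. In MA/MyJ it gave -0.79 ± 0.21 (adjusted p = 0.0177, limma) without the doubtful array, where the set used gave -0.64 ± 0.20 (adjusted p = 0.0534).

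Ugt2b1, whose rat counterpart conjugates bisphenol A, had a positive difference in WSB/EiJ and negative ones in the other 3 strains. In WSB/EiJ it read 12.61, 12.22 and, in the doubtful array, 13.41 after PF-04287881, against 12.01, 12.16, 11.37 and 12.55 after vehicle. It rose by 0.72 ± 0.20 (adjusted p = 0.0134, limma) with all arrays, but the difference was 0.39 ± 0.19 (adjusted p = 0.112) without the doubtful array, where the groups overlap, and 0.29 with array weights. In NZW/LacJ it read 12.86, 12.99, 12.75 and 12.998 after PF-04287881, against 13.40, 13.24, 13.48 and 13.32 after vehicle. These groups are apart, and the difference of -0.46 did not pass with all arrays (adjusted p = 0.0827, limma). It passed without the doubtful array (-0.46 ± 0.15, adjusted p = 0.0260, limma), without WSB/EiJ vehicle animal 3, with array weights and within the strain alone. The differences of -0.33 in MA/MyJ, where the groups overlapped, and -0.17 in SM/J passed in neither fit. The effect differed between strains in both fits (adjusted p = 0.0104, and 0.0357 without the doubtful array, limma's moderated F test).

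Ugt2b36 passed in no strain. Its treated and vehicle animals overlapped in every strain, its values lay between 13.11 and 14.03 in all arrays, and its strain differences between -0.12 and 0.19 did not pass in either fit. The highest value of any probe set in these arrays was 14.9.

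Ugt3a2 read 6.80 and 6.21 in the undoubted WSB/EiJ treated animals and 12.27 in the doubtful array, against 6.27, 5.48, 5.18 and 5.76 in WSB/EiJ vehicle animals. The doubtful array's value lay inside the pooled range of the NZW/LacJ, MA/MyJ and SM/J vehicle animals, 12.09 to 12.43. It lay below the NZW/LacJ vehicle animals alone, 12.33 to 12.43, and more than 5 log2 units above every other WSB/EiJ array. With all arrays Ugt3a2 rose by 2.76 ± 0.72 in WSB/EiJ (adjusted p = 0.00838, limma), and without the doubtful array by 0.84 ± 0.18 (adjusted p = 0.000923, limma), while treated animal 2 lay below vehicle animal 1. That standard error uses a spread shared by all groups. The SD was 0.42 in the undoubted treated (n = 2) and 0.46 in the vehicle WSB/EiJ animals, against 0.047 to 0.16 in the other strains' groups. The 0.18 can therefore understate the spread between WSB/EiJ animals. With array weights over all arrays the difference was 0.67 and did not pass. These WSB/EiJ values lie around the median of all probe-set values, and no detection calls were given in the sources used here.

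In the other strains Ugt3a2 was lower in the treated group by less than 0.4 log2 units. It ranged from 11.83 to 12.08 after PF-04287881 and from 12.09 to 12.43 after vehicle in MA/MyJ, and from 11.94 to 12.08 after PF-04287881 and 12.33 to 12.43 after vehicle in NZW/LacJ. These groups did not overlap, but none of the 3 differences, -0.37 for MA/MyJ, -0.34 for NZW/LacJ and -0.23 for SM/J, passed in either fit. The strain-by-treatment test passed in both fits (adjusted p = 0.0486, and 0.000892 without the doubtful array, limma's moderated F test), but with all arrays the call was lost when any 1 of 28 arrays was left out.

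**Figure D2:**
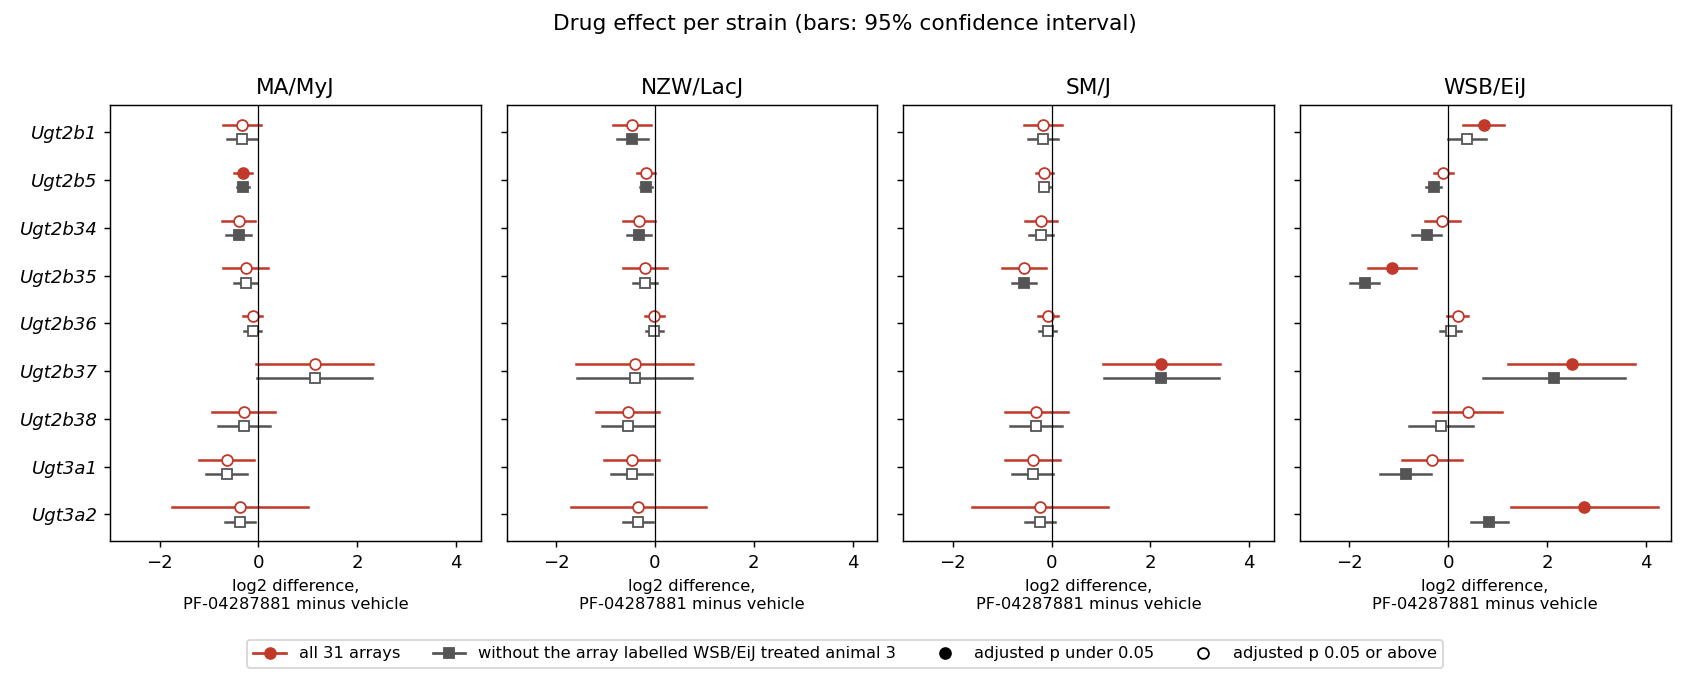
Log2 difference, PF-04287881 minus vehicle, of each gene in each strain, with 95% confidence intervals. Red circles use all 31 arrays, grey squares leave out the array labelled as treated WSB/EiJ animal 3, and filled symbols passed an adjusted p under 0.05. Without that array the WSB/EiJ value of Ugt3a2 shrinks to 0.84 and that of Ugt2b35 grows to -1.69.

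Counted over the family with all arrays, 1 of the 9 genes passed in MA/MyJ, beside 4.14% of all genes tested, and 0 of 9 passed in NZW/LacJ, beside 21.5%. In SM/J 1 of 9 passed, beside 2.59% of all genes, and in WSB/EiJ 4 of 9, beside 19.3%. With that array left out, 2 of 9 passed in MA/MyJ (7.3% of all genes) and 3 of 9 in NZW/LacJ (26.7%), while SM/J had 2 of 9 (4.65%) and WSB/EiJ had 6 of 9 (32.4%). In a fit of the WSB/EiJ arrays alone, with the doubtful array, 0 members and 4 of all genes passed. The median difference of the 9 genes was -0.32 for MA/MyJ, -0.34 for NZW/LacJ and -0.21 for SM/J, where the medians of all genes were 0.0055, 0.021 and -0.0031. In WSB/EiJ it was 0.19 with all arrays and -0.14 without the doubtful array, beside medians of all genes of 0.020 and 0.021. All 9 differences were negative in NZW/LacJ, and 8 of 9 were negative in MA/MyJ and in SM/J, with Ugt2b37 as the exception.

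Averaged over the 4 strains, Ugt2b37 rose by 1.36 ± 0.29 (adjusted p = 0.00134, limma) and 4 members fell. Ugt2b35 fell by 0.54 ± 0.11 (adjusted p = 0.000962, limma), Ugt3a1 by 0.45 ± 0.14 (adjusted p = 0.0192, limma), Ugt2b34 by 0.26 ± 0.082 (adjusted p = 0.0213, limma) and Ugt2b5 by 0.18 ± 0.045 (adjusted p = 0.00392, limma). Of all genes, 13.3% rose, 8.92% fell and 22.2% passed in this comparison. Without the doubtful array the same 5 passed, beside 32.7% of all genes (18.4% higher and 14.2% lower), with values of 1.27 for Ugt2b37, -0.68 for Ugt2b35, -0.59 for Ugt3a1, -0.34 for Ugt2b34 and -0.23 for Ugt2b5. With the doubtful array kept, the count was 3 without WSB/EiJ treated animal 1, since Ugt2b34 and Ugt3a1 no longer passed. Also with it kept, Ugt2b34 did not pass without WSB/EiJ treated animal 2. The effect differed between strains for 3 of 9 members with all arrays (19.4% of all genes) and for 4 of 9 without the doubtful array (32.4%).

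**Figure D3:**
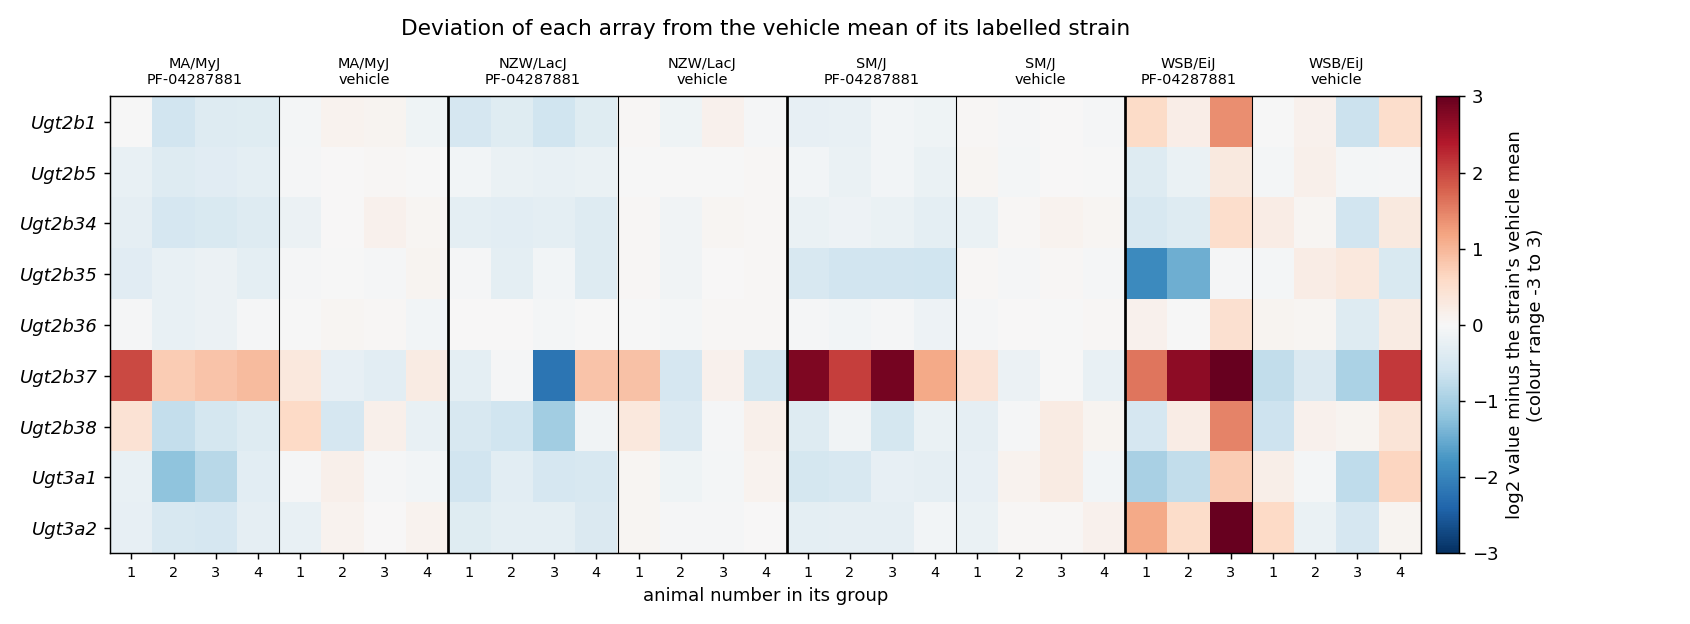
Log2 value of each array minus the vehicle mean of its labelled strain, for each gene, with blue lower, red higher and colours limited to -3 to 3. Arrays are grouped by strain with PF-04287881 left of vehicle. Ugt2b37 is high in the treated SM/J animals and in WSB/EiJ vehicle animal 4, and the array labelled as treated WSB/EiJ animal 3 lies above both other treated WSB/EiJ arrays for all 9 genes.

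The strains also differed without the drug. Among vehicle animals, 7 of the 9 members differed between strains (56.5% of all genes, limma's moderated F test), all but Ugt2b35 and Ugt3a1, and 8 of 9 without the doubtful treated array (63% of all genes). A lower level and weaker binding of a strain's own sequence to the probes cannot be told apart here.

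Ugt3a2 had the widest range. Its vehicle means were 12.32 ± 0.16 for MA/MyJ, 12.37 ± 0.047 for NZW/LacJ and 12.30 ± 0.14 in SM/J (SD, n = 4 each), and 5.67 ± 0.46 in WSB/EiJ (SD, n = 4). MA/MyJ, NZW/LacJ and SM/J exceeded WSB/EiJ by 6.65, 6.69 and 6.63, each ± 0.67 (adjusted p = 4.20e-08, 1.13e-07 and 5.21e-08, limma). All 4 WSB/EiJ vehicle values lay below the median of all values and are not shown to be above background, so these differences may be lower bounds. Those 3 strains lay within 0.064 of each other, less than the spread between animals of MA/MyJ or SM/J.

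Ugt2b37 was highest in NZW/LacJ. Its vehicle mean was 8.93 ± 0.67 in NZW/LacJ, followed by 6.67 ± 1.43 in WSB/EiJ, 6.05 ± 0.33 in MA/MyJ and 5.28 ± 0.29 in SM/J (SD, n = 4 each). NZW/LacJ exceeded SM/J by 3.65 ± 0.57 and WSB/EiJ by 2.26 ± 0.57 (adjusted p = 4.12e-05 and 0.00305, limma), and MA/MyJ minus NZW/LacJ was -2.88 ± 0.57 (adjusted p = 0.000617, limma). All SM/J and MA/MyJ vehicle values, and those of WSB/EiJ vehicle animals 1 to 3, lay below the median of all values, 6.49. They are not shown to be above background, so these differences may be lower bounds. No difference among the lower 3 strains passed, and SM/J minus WSB/EiJ was -1.39 (adjusted p = 0.0647, limma), a difference that passed without WSB/EiJ vehicle animal 1, without vehicle animal 3 or without NZW/LacJ treated animal 3. With WSB/EiJ vehicle animal 4 left out it was -0.68, and MA/MyJ minus WSB/EiJ turned to 0.086, with all 4 vehicle animals at -0.62, so the order of WSB/EiJ and MA/MyJ rests on that animal.

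Ugt2b38 was also highest in NZW/LacJ, at 7.51 ± 0.31, against 6.62 ± 0.47 in MA/MyJ, 6.54 ± 0.22 in SM/J and 6.39 ± 0.43 in WSB/EiJ (SD, n = 4 each). NZW/LacJ exceeded SM/J by 0.97 ± 0.31 and WSB/EiJ by 1.12 ± 0.31 (adjusted p = 0.0261 and 0.00625, limma), MA/MyJ minus NZW/LacJ was -0.89 ± 0.31 (adjusted p = 0.0384, limma), and no difference among the lower 3 passed. The MA/MyJ and SM/J calls against NZW/LacJ were lost when any 1 of 6 and any 1 of 4 vehicle animals was left out.

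Ugt2b1, Ugt2b5, Ugt2b34 and Ugt2b36 were lowest in WSB/EiJ. Ugt2b1 averaged 13.19 ± 0.12 for MA/MyJ, 13.36 ± 0.10 for NZW/LacJ and 13.14 ± 0.033 for SM/J, and 12.03 ± 0.49 for WSB/EiJ (SD, n = 4 each). For all 4 genes the differences from WSB/EiJ passed in each of the other 3 strains, by 1.11 to 1.33 for Ugt2b1, 0.24 to 0.32 for Ugt2b5, 0.42 to 0.56 for Ugt2b34 and 0.41 to 0.48 for Ugt2b36, and no difference among those 3 strains passed. Without WSB/EiJ vehicle animal 3, the lowest animal, the Ugt2b34 differences were 0.23 to 0.37 and none passed. The SM/J minus WSB/EiJ call was lost without any 1 of 5 vehicle animals for Ugt2b34 and any 1 of 7 for Ugt2b5. For Ugt3a1, NZW/LacJ and SM/J exceeded WSB/EiJ by 0.74 and 0.73 (adjusted p = 0.0330 and 0.0398, limma), without passing the test over all 4 strains (adjusted p = 0.0617). Those were 0.49 and 0.48, and not called, without WSB/EiJ vehicle animal 3. Each of these calls was lost without any 1 of 5 vehicle animals. With the second probe set NZW/LacJ minus WSB/EiJ was 0.59 and did not pass, and SM/J minus WSB/EiJ was 0.75 and passed (adjusted p = 0.0642 and 0.0233, limma).

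Ugt2b35 did not pass between vehicle groups. Its means were 13.13 ± 0.056 for MA/MyJ, 12.89 ± 0.068 for NZW/LacJ, 12.82 ± 0.032 for SM/J and 12.94 ± 0.35 for WSB/EiJ (SD, n = 4 each). The largest difference between any pair was 0.31 ± 0.22, MA/MyJ minus SM/J.

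By pairs of strains, MA/MyJ minus NZW/LacJ passed for 2 of 9 members (24.2% of all genes) and MA/MyJ minus SM/J for 0 (16.9%). MA/MyJ minus WSB/EiJ passed for 5 (28.1%), NZW/LacJ minus SM/J for 2 (20.9%), NZW/LacJ minus WSB/EiJ for 8 (38.4%) and SM/J minus WSB/EiJ for 6 (32.9%).

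**Figure D4:**
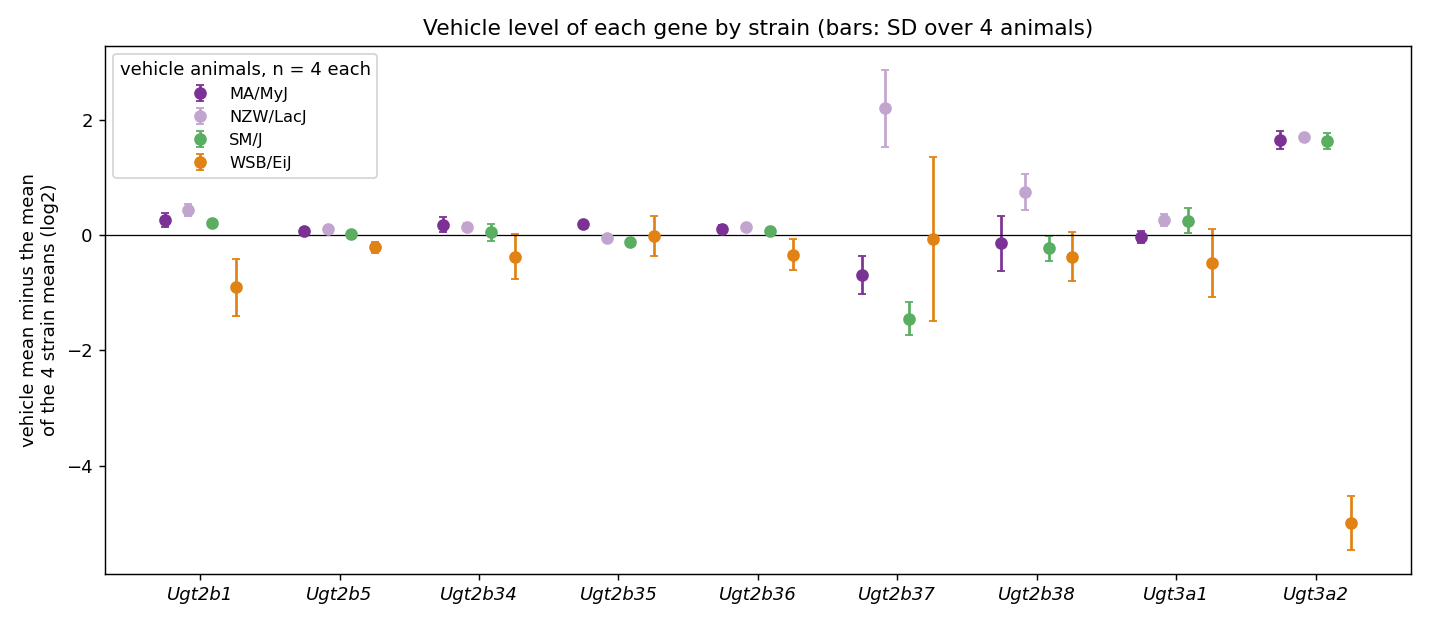
Mean log2 value of the vehicle animals of each strain minus the mean of the 4 strain means, for each gene, with the SD over 4 animals as bars. WSB/EiJ lies below the other strains for Ugt3a2 and Ugt2b1, and NZW/LacJ lies above them for Ugt2b37 and Ugt2b38.

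Genes with the most similar pattern were sought over the 8 group means, each gene centred on its own mean, by the root-mean-square difference. For Ugt3a2 the nearest were Bub3, at 0.37 log2 units, and Car3, at 1.07. For Ugt2b37 they were Ptgds at 0.68 and Cyp51 at 0.69. For Ugt2b35 they were Elp4 at 0.076 and Pag1 at 0.12, and for Ugt2b1 Ces2e and Habp2, both at 0.12. In the fit lacking the doubtful array Bub3, Ptgds and Elp4 were again among the nearest 2 for their genes, and neither of those named for Ugt2b1 was.

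Other genes of the pathway came from lists chosen by name. Of 13 other glucuronosyltransferase genes listed, only Ugt2a3, which lies between Ugt2b37 and Ugt2b38, could be tested: it rose by 0.80 ± 0.14 in WSB/EiJ (adjusted p = 0.000255, limma), and by 0.65 ± 0.15 without the doubtful array, and passed in no other strain. Of 7 genes for supply and removal of UDP-glucuronic acid, 3 rose and 0 fell in the average over strains: Gusb, the lysosomal enzyme that cleaves glucuronides, by 0.37 ± 0.084, Pgm2 by 0.26 ± 0.081 and Ugp2, which makes UDP-glucose, by 0.23 ± 0.061 (adjusted p = 0.00206, 0.0223 and 0.00902, limma), and without the doubtful array the same 3 rose and Pgm1 fell by 0.15 ± 0.043. The Ugp2 effect differed between strains (adjusted p = 0.00649, limma's moderated F test): it was 0.57 in NZW/LacJ, where it passed, and -0.27 in WSB/EiJ, or -0.36 without the doubtful array, where it did not. The median of the 7 was -0.048, beside 0.0043 for all genes. Of 4 glucuronide exporters, Abcc2, the canalicular pump, rose by 0.47 ± 0.073 in the average with all arrays and 0 fell (adjusted p = 4.01e-05, limma, median of the 4 genes 0.12). Without the doubtful array Abcc2 rose by 0.41 ± 0.062 and Abcc4 by 0.34 ± 0.13 in the average (adjusted p = 1.48e-05 and 0.0417, limma). In that fit Abcc2 passed in each of the 4 strains. With all arrays, 2 exporters rose in NZW/LacJ, Abcc4 by 1.18 ± 0.38 and Abcc3 by 0.64 ± 0.11. In WSB/EiJ Abcc4 differed by -0.999 and Abcc3 by -0.25, neither passing. Without the doubtful array Abcc4 differed there by -0.12, Abcc3 fell by 0.40 ± 0.11 and Abcg2 fell by 0.47 ± 0.17 (adjusted p = 0.00928 for Abcc3 and 0.0339 for Abcg2, limma). With all arrays the effect differed between strains for Abcc4 and Abcc3 (adjusted p = 0.0395 for Abcc4 and 0.000838 for Abcc3, limma's moderated F test).

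Of 8 tested regulators, 1 rose and 0 fell in the average with all arrays (median 0.068), Ahr by 0.29 ± 0.085. Without the doubtful array, Ahr rose by 0.31 ± 0.089 and Rxra by 0.16 ± 0.047 in the average (adjusted p = 0.00892 and 0.0105, limma). In that fit Nr1i3 fell by 0.45 ± 0.051 and Nfe2l2 by 0.27 ± 0.092 in the average (adjusted p = 2.91e-07 and 0.0255, limma). With all arrays the Ahr effect differed between strains (adjusted p = 0.000441, limma's moderated F test). Ahr also rose in MA/MyJ, by 0.66 ± 0.17 (adjusted p = 0.0213, and 0.0154 without the doubtful array, limma). Its difference was -0.13 in NZW/LacJ and -0.36 in SM/J, neither passing. Hnf4a fell in NZW/LacJ by 0.29 ± 0.10 (adjusted p = 0.0496, and 0.0199 without the doubtful array, limma). The largest changes that passed were in WSB/EiJ. There Ahr rose by 1.00 ± 0.18, Nfe2l2 fell by 1.20 ± 0.32 and Nr1i3 fell by 0.72 ± 0.24 (adjusted p = 0.000364, 0.00980 and 0.0368, limma). Leaving out the doubtful array, Nfe2l2 fell by 1.92 ± 0.21 and Nr1i3 by 1.31 ± 0.12 in WSB/EiJ, and Nr1i3 fell by 0.43 ± 0.095 in SM/J.

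Cell type markers were read beside these results, with counts from all arrays, the doubtful array included. In the average over strains, 13.3% of all genes rose and 8.92% fell. Of 10 macrophage markers, 9 rose and 0 fell in the average over strains (median 0.97), with summed linear levels of 7525 to 8267 in treated WSB/EiJ and 2469 to 4017 in vehicle WSB/EiJ animals, and 9428 to 18710 in treated MA/MyJ and 4747 to 5647 in vehicle MA/MyJ animals. The 8267 was that of the doubtful array, and the undoubted treated WSB/EiJ animals summed to 7599 and 7525. The summed ranges overlapped in NZW/LacJ, at 7076 to 26689 in treated and 6686 to 9895 in vehicle animals, and in SM/J, at 6704 to 12790 in treated and 5949 to 8169 in vehicle animals. Of 9 hepatocyte markers 1 rose and 0 fell (median -0.015), and 4 of 6 sinusoidal endothelial markers fell. Of 7 pericentral hepatocyte markers, 4 rose and 0 fell in WSB/EiJ, beside 19.3% of all genes that passed there with all arrays. They summed to 47669 to 51113 in treated and 38894 to 42562 in vehicle WSB/EiJ animals. The 51113 was that of the doubtful array, and the undoubted treated animals summed to 50543 and 47669. In NZW/LacJ vehicle animals the pericentral markers summed to 53160 to 54000. Of the bile duct markers, Krt19, Epcam and Sox9 lay above the median of all values in 30, 24 and 7 of the 31 arrays and Krt7 in 0, and none of the 3 tested passed in the average. Of the kidney tubule markers, Slc34a1 lay above it in 19 arrays and Umod, Kap and Slc12a1 in 0, and the 1 tested did not pass. The part of these shifts in the glucuronosyltransferase results was not tested.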

How the data were processed

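RNA of 31 left liver lobes was measured on 1-colour Affymetrix arrays, and the labels gave each array its strain, treatment and animal number. The authors deposited log2 expression values made by RMA with Affymetrix Power Tools, per the submitters' processing notes, as 1 table of 44721 probe sets. RMA corrects background, sets all arrays to 1 distribution and summarises each probe set, which can compress large changes and hide a shift common to all genes. Tool versions, scan dates, detection calls and probe sequences are not given in the sources used here.

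Of the probe sets, 34728 carried 1 gene symbol, 872 several and 9121 none in the platform annotation, and 34525 were matched to the current symbol in the GRCm38.p6 gene table. Those with 1 symbol gave 18147 genes, each read from its brightest set. Genes above the median of all values, 6.49, in at least 3 arrays were tested (12890), and 5257 were not. Array medians lay between 6.43 and 6.54. limma 3.58.1 in R 4.3.3 fitted 8 group means to all arrays, with the drug effect per strain, its average, the strain-by-treatment F test and vehicle contrasts. The spread had 23 residual and 3.17 prior degrees of freedom, and the number of arrays limits the precision. The labels name separate animals, so p-values measure the spread between animals, pooled over all groups. Where WSB/EiJ animals varied more than the others, as for Ugt2b35 and Ugt3a2, p-values of tests that involve WSB/EiJ can be too small.

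Named genes were the 9 members, up to 4 genes of each pathway list that passed, by size, and the 2 genes nearest in pattern to each of the 4 members with the widest range of group means (over 1), leaving out predicted and clone names. The members and lists were chosen with earlier results of these data known. The same animal numbers recur in all groups, but correlations of their deviations ran from -0.52 to 0.41 and did not pair the animals. Alternatives were each array left out, centring, array weights, trend and robust variance, a stricter filter and none, the mean of a gene's probe sets, fits within a strain, and the replicate number as a block. The tests were checked on simulated data. Promoters were compared in Python 3.11.15 with Biopython 1.88, and figures were drawn with Matplotlib 3.10.9.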

Additional observations from a re-analysis of the deposited data

Results flagged for a closer look

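In 6 of the 63 groups of 4 animals examined, 1 animal stood apart relative to its group's range, its gap to the nearest animal being over 0.829 of that whole range, and chance alone picks about 1 group in 20. The rule takes no account of the size of the gap in log2 units. WSB/EiJ vehicle animal 4 for Ugt2b37, at 8.78 against at most 6.24, had a ratio of 0.827 and was not picked. The lowest vehicle animal stood apart in NZW/LacJ for Ugt2b34 (ratio 0.8518) and for Ugt2b35 (ratio 0.8564). The highest treated animal stood apart in MA/MyJ for Ugt2b37 (ratio 0.8361), and in SM/J for Ugt2b35 (ratio 0.8423) and Ugt3a2 (ratio 0.9271). The highest vehicle animal stood apart in WSB/EiJ for Ugt2b5 (ratio 0.8977). The treated WSB/EiJ group, with 3 animals, was not examined in this way.

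The PF-04287881 effect differed between strains by limma's moderated F test for Ugt2b1 (adjusted p = 0.0104), Ugt2b37 (adjusted p = 0.0381) and Ugt3a2 (adjusted p = 0.0486) with all arrays. With the array labelled as treated WSB/EiJ animal 3 left out, it differed for Ugt2b1 (adjusted p = 0.0357), Ugt2b35 (adjusted p = 4.28e-06), Ugt2b37 (adjusted p = 0.0422) and Ugt3a2 (adjusted p = 0.000892).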

How the results depend on the processing

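Of 117 tests of the members, 44 passed with all arrays, 36 of these passed in every alternative that keeps all arrays, and none of the 44 changed sign. Changes of sign among uncalled values follow, and their cause was not tested. With arrays centred on their median, Ugt2b36 was 0.025 in NZW/LacJ and 0.014 in the average, and vehicle MA/MyJ minus NZW/LacJ was 0.016 for Ugt2b5 and 0.0049 for Ugt2b36. With array weights, WSB/EiJ Ugt2b36 was -0.019, average Ugt3a2 -0.094, vehicle MA/MyJ minus SM/J Ugt2b38 -0.10 and NZW/LacJ minus SM/J Ugt3a1 -0.050, which was -0.074 by the mean of its probe sets. Without both WSB/EiJ treated animal 3 and vehicle animal 4, chosen after seeing the data, WSB/EiJ Ugt2b38 was -0.016, average Ugt3a2 -0.0175 and vehicle MA/MyJ minus WSB/EiJ Ugt2b37 0.086. Leaving out 1 array at a time gave average values of -0.14 to 0.0046 for Ugt2b1, -0.037 to 0.023 for Ugt2b36 and -0.025 to 0.73 for Ugt3a2. It gave -0.030 to 0.0023 for Ugt2b36 and -0.84 to 0.18 for Ugt2b37 in NZW/LacJ. In WSB/EiJ it gave -0.44 to 0.077 for Ugt2b34, -0.14 to 0.85 for Ugt2b38, -0.29 to 0.051 for Ugt2b5 and -0.86 to 0.0078 for Ugt3a1. For vehicle MA/MyJ minus NZW/LacJ it gave -0.0051 to 0.098 for Ugt2b34 and -0.078 to 0.033 for Ugt3a2, for MA/MyJ minus SM/J -0.11 to 0.25 for Ugt2b38 and -0.047 to 0.098 for Ugt3a2, and for MA/MyJ minus WSB/EiJ -0.94 to 0.086 for Ugt2b37. For NZW/LacJ minus SM/J it gave -0.075 to 0.091 for Ugt3a1 and -0.0046 to 0.11 for Ugt3a2, for NZW/LacJ minus WSB/EiJ -0.20 to 0.055 for Ugt2b35, and for SM/J minus WSB/EiJ -0.058 to 0.28 for Ugt2b38.

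The number of members called moved as follows. In MA/MyJ (1) it was 0 when centred, 5 with weights, 4 within the strain alone, 3 without both WSB/EiJ arrays and 0 to 2 with 1 array left out. In NZW/LacJ (0) it was 4 with weights, 5 within the strain, 4 without both arrays and 0 to 3 with 1 left out. In SM/J (1) it was 4 with weights, 2 within the strain, 2 without both arrays and 0 to 2 with 1 left out. In WSB/EiJ (4) it was 0 within the strain. With 1 array left out it was 3 to 5 for the average, 1 to 4 for strain by treatment, 1 to 2 for vehicle MA/MyJ minus NZW/LacJ and for NZW/LacJ minus SM/J, and 3 to 7 for SM/J minus WSB/EiJ. MA/MyJ minus SM/J had 1 with weights and 1 without both arrays.

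Counts over all genes moved by more than 1.5 times as follows. Array weights gave 2607 against 534 in MA/MyJ, 4418 against 2766 in NZW/LacJ, 2765 against 334 in SM/J, 4209 against 2488 in WSB/EiJ, 5280 against 2859 for the average and 5859 against 2498 for strain by treatment. They gave 5629 against 3124, 4588 against 2178 and 5557 against 2690 for MA/MyJ minus NZW/LacJ, MA/MyJ minus SM/J and NZW/LacJ minus SM/J. Within the strain alone there were 1063 in MA/MyJ and 4 in WSB/EiJ. Without WSB/EiJ treated animal 3 there were 941 in MA/MyJ, 600 in SM/J, 4180 in WSB/EiJ and 4180 for strain by treatment, and without treated animal 1 there were 1282 in WSB/EiJ. Without both arrays there were 1180 in MA/MyJ, 759 in SM/J, 3993 in WSB/EiJ, 4306 for the average and 4275 for strain by treatment. With 1 array left out, MA/MyJ had 279 to 941, SM/J 103 to 600 and WSB/EiJ 1282 to 4180.

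With the replicate number as a block, which the labels do not show to pair the animals, 0 members passed in MA/MyJ, average Ugt2b36 was 0.00024, and 2 further calls were lost, strain by treatment for Ugt3a2 and vehicle SM/J minus WSB/EiJ for Ugt2b34. Ugt2b38 and, without the doubtful array, WSB/EiJ Ugt3a2 lay near the median of all values, where small differences are hardest to measure. Ugt2b37 ranged from 5.06 to 9.88. The MA/MyJ and SM/J vehicle animals and WSB/EiJ vehicle animals 1 to 3 lay below that median, and the NZW/LacJ vehicle animals above it.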
